A study of Ovis aries with 13 samples.

Results

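The genes described here encode proteins that move ions, water, metals, nucleotides and small metabolites across membranes. They were followed in the left ventricle of sheep on both sides of birth. A gene belonged to the group if its symbol, in the array files or through a RefSeq accession, began with SLC and a digit, ATP1, ATP2, KCN, SCN, CACN or AQP. Glucose transporters whose symbol begins with SLC2A, and SLC16A1, SLC25A5 and SLC25A20, were left out. The rule took 39 of the 837 genes that a probe of the array names, with 55 of 15008 non-control probes. Of these, 43 probes carried the symbol themselves and 12 probes, of 7 genes, were named through RefSeq. The rule reads names and no level or change, although the group was proposed with results of these data known. By role, 2 genes encode sodium pump subunits, 4 ion channels, 7 aquaporins, and 7 belong to transport of sodium, potassium, protons, bicarbonate, phosphate or sugar at the plasma membrane. A further 5 carry amines, peptides or lysosomal products, 4 carry metals and 10 belong to the mitochondrial carrier family. The prefix also took SLC9A3R1, a scaffold protein that binds a sodium-proton exchanger and is no carrier itself. Only 1 potassium channel gene, KCNK3, met the rule. The ATP2 and CACN prefixes found no probe, and the SCN prefix found epithelial sodium channel subunits alone.

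The arrays compared 6 fetuses at gestational day 142 with 7 newborn lambs on postnatal day 1, 1 array for each animal, with no treatment, strain or genotype named in the labels. Of the fetuses 2 were female and 4 male, and of the newborns 4 were female and 3 male. By their barcodes the arrays lay on 2 slides. The first held 4 fetal and 3 newborn arrays and the second 2 fetal and 4 newborn ones. A change within the second slide thus rests on 2 fetuses. A 7th fetus and the right ventricle and septum, which the design text also names, were not analysed here. Some animals of a group carry the same number with different letters in the labels, which leave the meaning of that number unstated.

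As background, heart muscle keeps its membrane potential with the sodium pump, which exports sodium and imports potassium at the cost of ATP. Ion channels let charge flow along the gradients that the pump builds, aquaporins let water and in some cases glycerol pass, and solute carriers couple or facilitate the movement of ions, amino acids, metals and metabolites. Carriers of the mitochondrial inner membrane exchange nucleotides, cofactors and metabolites between cytosol and matrix. Birth changes the load, oxygen supply and fuels of the heart.

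Each probe of the array is a 60-base oligonucleotide. The sequences of the probes on which the results turn are given 5′ to 3′ as the scanner files list them, since a level is that of any transcript these letters match. The first lines belong to the zinc importer and the mitochondrial carrier with the clearest rise, to AQP4 and to the adenine nucleotide carrier SLC25A4. The last lines are the probe pair of AQP1, in which capitals mark the 59 bases that both probes share.
SLC39A3: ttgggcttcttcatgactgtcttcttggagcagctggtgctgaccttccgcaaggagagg
SLC25A26: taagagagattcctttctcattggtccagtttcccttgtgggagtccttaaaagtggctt
AQP4: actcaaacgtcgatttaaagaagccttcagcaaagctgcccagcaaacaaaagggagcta
SLC25A4: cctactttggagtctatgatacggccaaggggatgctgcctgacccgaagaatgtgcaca
AQP1, first probe: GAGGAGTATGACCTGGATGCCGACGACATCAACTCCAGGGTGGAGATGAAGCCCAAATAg
AQP1, second probe: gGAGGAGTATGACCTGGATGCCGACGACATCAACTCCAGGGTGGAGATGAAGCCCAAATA
The GC content of the 55 probes ran from 35.0% to 60.0%. No genome build was used, so genomic positions are not given.

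Levels are given on the log2 scale relative to the 75th percentile of the processed signal on the same array, so a level of 0 is the signal at that percentile. Levels of different probes cannot be compared, because each probe binds its target differently. The 75th percentile was between 219 and 367 intensity units, 8.77 to 13.6 times the median background, and 9411 to 10720 probes were well above background on an array. The first principal component, with 36.8% of the variance, put the fetal arrays between -29.1 and -20.4 and 6 newborn arrays between 10.08 and 35.07. The array of newborn 6 stood apart from its group at -9.00, and results are given without it where it changes them. Of 13 cardiomyocyte markers only MB was on the array. On the linear scale its signal was 426 to 589 times the 75th percentile in fetal and 260 to 555 times in newborn samples. Its log2 change was not called (-0.34, limma adjusted p = 0.139). In whole tissue, fewer cells of a type and less RNA per cell cannot be told apart.

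The first question was which probes of these genes gave a measurable signal in the ventricle. Probe sequences were compared only with the other probes of the array, so binding to further transcripts was not examined. The sodium pump subunit ATP1B1, the water channels AQP1, AQP2 and AQP8 and most mitochondrial carriers were measured on every array or nearly so, while the ion channels were at or near background. Of the 55 probes, 26 (47.3%) were well above background on all 13 arrays, 15 on some arrays and 14 (25.5%) on no array. Over all probes of the array the shares were 59.1% on all arrays and 22.2% on none. Of the 39 genes, 19 had a probe measured on all arrays and 13 had one measured on some arrays at most. The other 7 genes were on none, namely AQP5, AQP9, SCNN1G, SLC5A1, SLC9A3, SLC15A1 and SLC34A1. As background, several of these are known from epithelia. SLC5A1 and SLC15A1 take up glucose and peptides in the gut, SLC9A3 and SLC34A1 recover sodium and phosphate in the kidney, and AQP5 serves glands. Other members known from epithelia were measured, among them the kidney water channel AQP2, on all 13 arrays. An array measured between 28 and 37 of the 55 probes well above background.

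**Figure D1:**
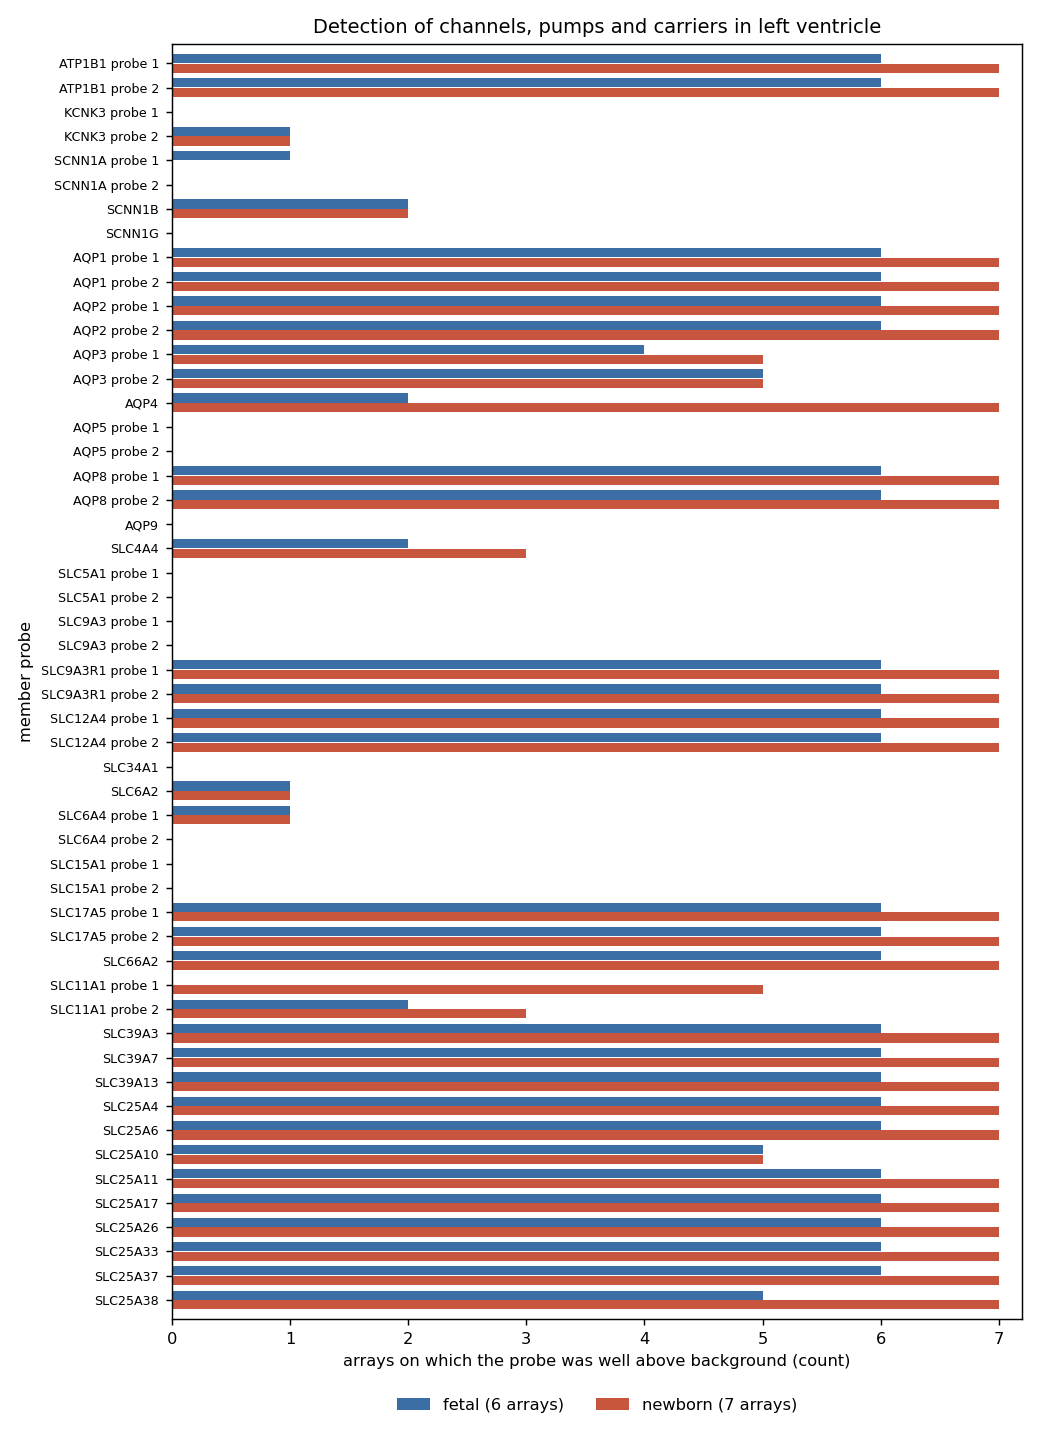
Number of arrays (horizontal axis) on which each probe reported here was well above background, in 6 fetal (blue) and 7 newborn (red) samples; rows without bars are probes at background on every array. Probes of SCNN1G, SLC34A1, AQP5, AQP9, SLC5A1, SLC9A3 and SLC15A1 show no bars, while the mitochondrial carriers are measured on most or all arrays. The first SLC11A1 probe is measured only in newborn samples and AQP4 in 2 fetal and 7 newborn ones.

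None of the 6 channel probes reached the 6 arrays needed for a test. KCNK3, a background potassium channel, was well above background on 1 fetal and 1 newborn array with its second probe and on none with its first. The first SCNN1A probe, for the alpha subunit of the epithelial sodium channel, was well above background on 1 fetal array, at -3.91 in fetus 6, where the other fetal values ended at -5.88. SCNN1B, its beta subunit, was well above background on 2 fetal and 2 newborn arrays. At this signal a difference in these channels could not be measured.

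Several transporters with textbook roles in heart or nerve were also too dim to be tested. SLC4A4, a sodium bicarbonate cotransporter, was measured on 2 fetal and 3 newborn arrays. SLC6A2, which takes noradrenaline back into nerve endings, was measured on 1 array of each group. The first probe of SLC6A4, the serotonin transporter, was high in fetus 1 (-2.28) and no other fetal value was above -5.70.

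The second question was which transcripts differed between fetal and newborn ventricle. The changes were small and few. Of 32 tested probes, for 24 genes, 5 rose after birth (12.0% of all 10257 tested probes did), and none fell (11.1% of all tested probes did). The 5 probes belong to SLC39A3, SLC25A26, SLC17A5, which has 2 of them, and AQP4. AQP4 was well above background on 2 fetal and 7 newborn arrays, so it was tested only through the newborn group. Among probes well above background on all 13 arrays, 4 of 26 were called, where 25.7% of 8874 probes were. Under quantile normalization 6 of 32 were called, of which 2 were lower (23% of all tested probes were called there). In the deposited series matrix 6 of 23 were called, of which 3 were lower (25.5% of 7041 probes were called). Without fetus 2, 4 of 32 were called, of which 1 was lower (18.4% of all tested probes were called). The split by direction thus differed between settings. Without newborn 6, 6 of the 32 probes rose, where 30.4% of all tested probes were called in either direction. In total 5 of 32 passed against 23.1% of all tested probes, so calls were no more frequent here than on the whole array. By the brightest probe of each gene, 4 of 24 genes, AQP4 among them, were called, against 24.4% of 550 named genes. At an unadjusted p under 0.05 there were 11 higher and 4 lower probes among the 32, where 20.0% and 17.8% of all tested probes were, or 15 of 32 against 37.8% in either direction. The median change of the 32 probes was 0.09 and that of all tested probes 0.03. The median size of a change, whatever its sign, was 0.27 against 0.24. No probe of the group changed by 2-fold or more, as 3.42% of all tested probes did. Only 2 of the 32 probes separated the groups without overlap (6.89% of all tested probes did).

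**Figure D2:**
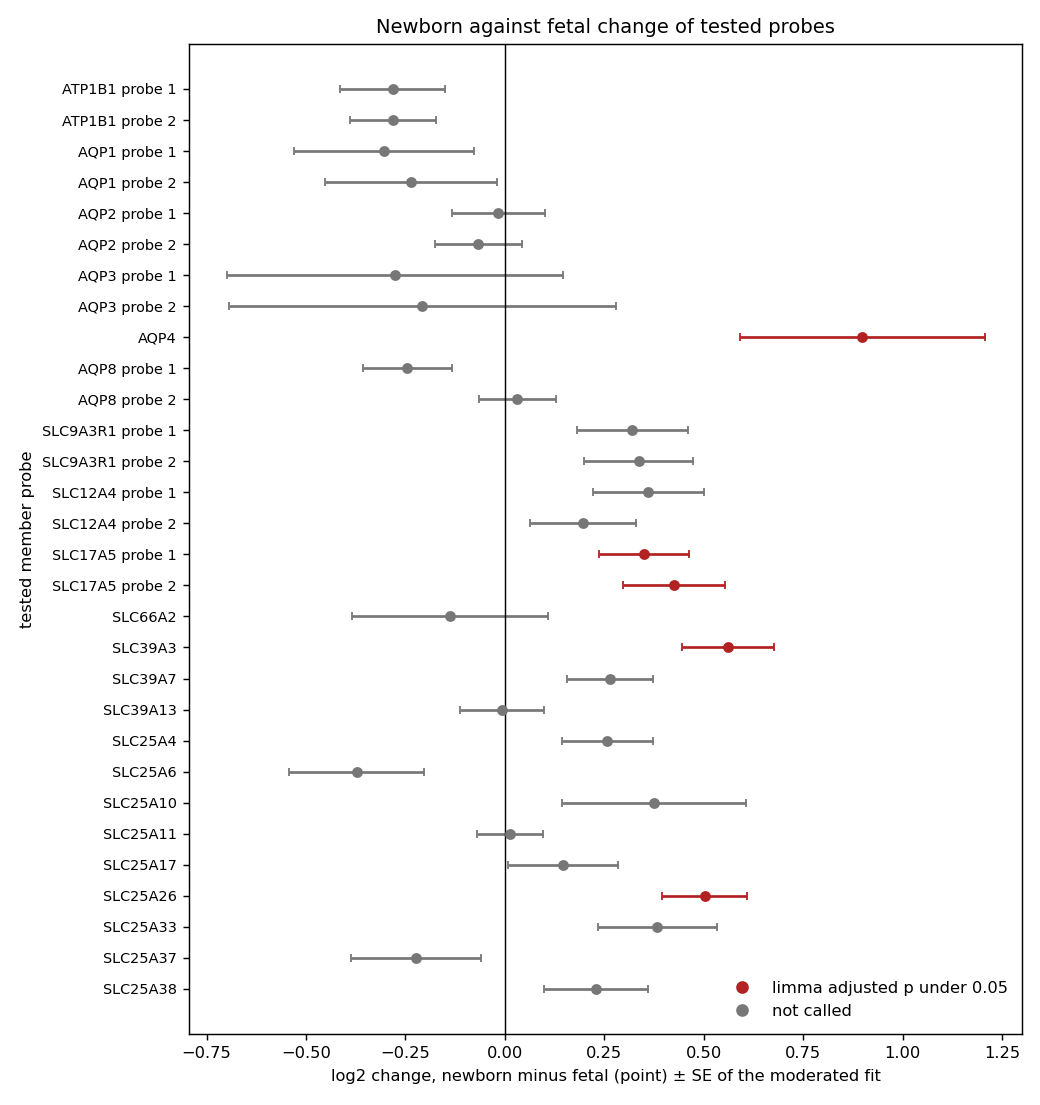
Change of each tested probe reported here on the log2 scale, newborn minus fetal (points), with the SE of the moderated fit (bars); red points are called at a limma adjusted p under 0.05. All 5 red points lie to the right of 0, between 0.35 and 0.90, and the largest fall, SLC25A6 at -0.37, is not called. The point at 0.90 is AQP4, which was tested only through the newborn group.

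Of 3 metal carriers tested, SLC39A3 rose and the others did not pass. SLC39A3 imports zinc across the plasma membrane. Its level in the 6 fetuses was -0.74, -0.81, -0.60, -0.91, -0.90 and -0.67. In the 7 newborns it was -0.18, -0.44, 0.02, -0.31, -0.22, -0.51 and 0.16. Every newborn lay above every fetus. SLC39A3 rose 1.48-fold, from -0.77 ± 0.12 (SD, n = 6) to -0.21 ± 0.24 (SD, n = 7), a log2 change of 0.56 (SE 0.115, limma adjusted p = 0.00434). The change was 0.57 within each of the 2 slides, 0.60 in females and 0.48 in males.

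The tested zinc carriers other than SLC39A3 did not pass. SLC39A7, which releases zinc from the endoplasmic reticulum, lay between -1.92 and -1.74 in fetuses (median -1.82) and between -1.83 and -1.13 in newborns (median -1.56). On 5 of 7 newborn arrays it was above every fetus, with a log2 change of 0.26 (SE 0.107, adjusted p = 0.088). Without newborn 6 it passed (0.31, adjusted p = 0.0376). SLC39A13, a zinc carrier of intracellular vesicles, differed by -0.01 (SE 0.106, adjusted p = 0.962).

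SLC11A1 carries iron and other divalent metals out of the phagosomes of macrophages. Its first probe was well above background on 5 of 7 newborn arrays and on none of the 6 fetal ones. Fetal levels were -6.20, -5.84, -4.86, -3.96, -4.40 and -4.46. Newborn levels were -3.45, -4.62, -3.61, -1.86, -3.76, -3.22 and -5.23, so the groups overlapped, with newborn 4 highest. The newborn mean was 1.67-fold higher where a fetal array counts with its dimmest probe well above background, or with its own value if higher. Newborns 2 and 7, not well above background, entered with their own uncertain values, so this size is no strict lower bound. Measured on 5 arrays only, the first probe was not tested. With no filter on dim probes its log2 change was 1.27 (SE 0.494) and did not pass (adjusted p = 0.11). Its second probe, with 2 fetal and 3 newborn arrays well above background, differed by 0.63 there (SE 0.615, adjusted p = 0.576). Of 8 macrophage and monocyte markers, 4 were on the array, 3 were tested and all 3 rose: CD14 (0.66), FCER1G (0.76) and FCGR1A (2.07), while ITGAM was on no array well above background. FCGR1A was measured on 2 fetal and 7 newborn arrays, so its size is uncertain, and with fetal arrays at least at their dimmest measured level it was 1.61. On the linear scale the 4 markers summed to 0.728 to 1.06 in fetuses and 1.05 to 2.19 in newborns, most of it FCER1G. The sum was highest in newborn 4, as was the first SLC11A1 probe, while the second SLC11A1 probe was highest in newborn 5 (-2.97). In newborn 2 the sum was 1.76, with the first SLC11A1 probe at -4.62 and not well above background. The part of these markers in the SLC11A1 values was not tested.

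Among mitochondrial carriers all 10 probes, 1 for each gene, were tested and SLC25A26 alone passed. SLC25A26 brings the methyl donor S-adenosylmethionine into the matrix. Its fetal levels were -1.11, -0.95, -0.97, -0.90, -0.81 and -0.85, and its newborn levels were -0.68, -0.63, -0.51, -0.24, -0.22, -0.56 and -0.17. The groups did not overlap, although the highest fetus and the lowest newborn were close. SLC25A26 rose 1.42-fold, from -0.93 ± 0.11 (SD, n = 6) to -0.43 ± 0.22 (SD, n = 7), a log2 change of 0.50 (SE 0.108, limma adjusted p = 0.0053). It was 0.37 within the first slide and 0.53 within the second. In newborns 4, 5 and 7, which are all female and on the second slide, it was highest. Females changed by 0.58 and males by 0.38, a difference that did not pass (SE 0.216, adjusted p = 0.989).

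The adenine nucleotide carriers, which exchange ADP for ATP across the inner membrane, did not pass. SLC25A4, the form typical of heart and skeletal muscle, had fetal levels between 9.22 and 9.59 (median 9.39) and newborn levels between 9.39 and 9.98 (median 9.66). The groups overlapped, with 4 of 7 newborns above every fetus, and the log2 change was 0.26 (SE 0.114, adjusted p = 0.115). It was 0.05 under quantile normalization and 0.06 in the deposited series matrix. SLC25A6, a more widely expressed form, ran from 4.14 to 5.41 in fetuses (median 4.71) and from 4.07 to 4.61 in newborns (median 4.33). It differed by -0.37 (SE 0.169, adjusted p = 0.122) and passed without fetus 2 (-0.49, adjusted p = 0.0457) and in the series matrix (-0.45, adjusted p = 0.0485).

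The other 7 mitochondrial carriers differed by -0.22 to 0.38. Malate and succinate pass through SLC25A10, the dicarboxylate carrier, which differed by 0.38 (SE 0.232, adjusted p = 0.254) and was measured on 5 fetal and 5 newborn arrays. SLC25A11, the oxoglutarate carrier of the malate-aspartate shuttle, differed by 0.01 (SE 0.0823, adjusted p = 0.924). The pyrimidine nucleotide carrier SLC25A33 differed by 0.38 (SE 0.15, adjusted p = 0.077) and passed without fetus 1 (0.45, adjusted p = 0.0475). SLC25A17, the peroxisomal member of the family, differed by 0.15 (SE 0.139, adjusted p = 0.465).

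SLC25A37 and SLC25A38 serve heme synthesis, the former by importing iron and the latter by importing glycine. They differed in opposite directions, by -0.22 (SE 0.163, adjusted p = 0.336) and 0.23 (SE 0.131, adjusted p = 0.217). Of 10 erythroid markers 3 were on the array, and HBB and AHSP fell (-1.53, adjusted p = 0.00616, and -1.73, adjusted p = 0.0447), while EPOR differed by 0.21 (SE 0.21) and did not pass. AHSP was measured on 5 fetal and 2 newborn arrays, so its size is uncertain. On the linear scale the summed erythroid markers, nearly all HBB, were 53.9 to 258 in fetuses and 25.7 to 68.8 in newborns. Their part in the values of these carriers was not tested.

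Among transporters of amines, peptides and lysosomal products, SLC17A5 rose and SLC66A2 was the only other gene tested. SLC17A5 encodes sialin, which exports sialic acid from lysosomes. With its second probe, fetal levels were between -1.30 and -0.73 (median -0.93) and newborn levels between -0.83 and -0.26 (median -0.47). The groups overlapped, and 5 of 7 newborns were above every fetus. The rise of the second probe was 1.34-fold, or 0.42 on the log2 scale (SE 0.128, adjusted p = 0.0286). With the first probe, fetal levels were between -1.67 and -1.19 (median -1.51) and newborn levels between -1.37 and -0.88 (median -1.12). On 4 of 7 newborn arrays it was above every fetus, and it rose by 0.35 (SE 0.113, adjusted p = 0.0382). The probes do not overlap but lie end to end, so 2 adjoining stretches of the transcript gave the same direction in the same animals. Both calls were lost with sex as a term (adjusted p = 0.0684 for the first probe and 0.0514 for the second) and with animal number as a random block (0.0804 and 0.0608). That of the first probe did not survive a block for slide either (0.31, adjusted p = 0.0637). Both calls also ended without 1 array among fetuses 1, 3 and 6 and newborns 4, 5 and 7, at an adjusted p of 0.0537 to 0.0817. That of the first probe ended as well without fetus 2 (0.0503) or newborn 3 (0.0514). SLC66A2 differed by -0.14 (SE 0.246, adjusted p = 0.713).

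**Figure D3:**
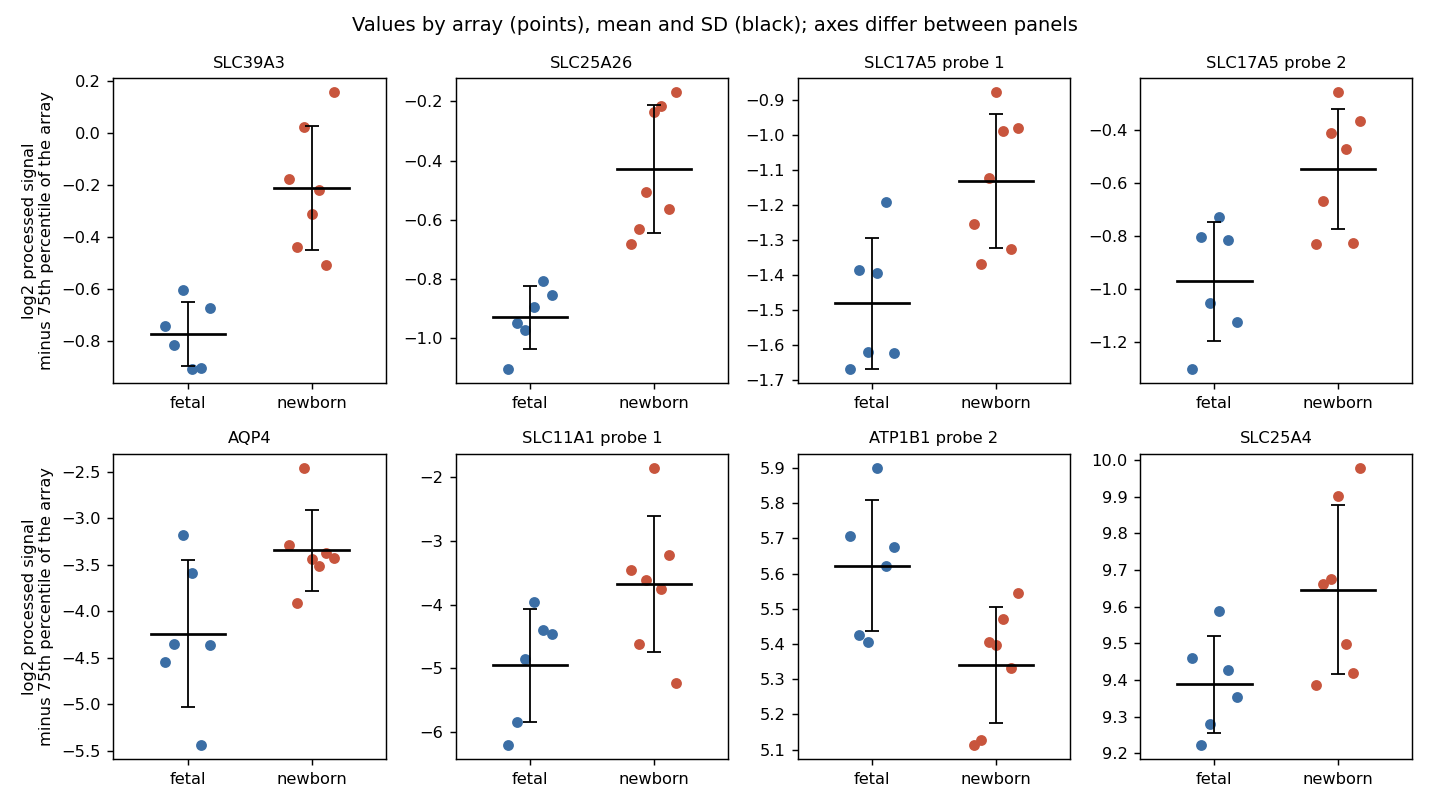
Level of selected probes in each array (points; blue fetal, n = 6; red newborn, n = 7), with mean and SD in black, on the log2 scale relative to the 75th percentile of that array; vertical axes differ and do not start at a common value. SLC39A3 and SLC25A26 show no overlap of the groups, SLC17A5, AQP4, SLC11A1, ATP1B1 and SLC25A4 do.

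Of the 7 aquaporins 5 were tested and AQP4 alone passed. AQP4 is a water channel best known from brain and skeletal muscle. Its fetal levels were -4.54, -4.35, -3.18, -3.59, -5.44 and -4.36, and its newborn levels were -3.29, -3.91, -2.46, -3.44, -3.52, -3.38 and -3.43. Only 2 fetal arrays, but all 7 newborn ones, measured it well above background, so it was tested through the newborn group and the size of its change is uncertain. Fetuses 3 and 4 lay within the newborn range, and newborn 3 alone was above every fetus. The measured values gave a 1.86-fold higher level in newborns, from -4.24 ± 0.79 (SD, n = 6) to -3.34 ± 0.44 (SD, n = 7), a log2 change of 0.90 (SE 0.308, adjusted p = 0.0479). Where fetal arrays count at least with their dimmest probe well above background, AQP4 was 1.71-fold higher. The measured change was 0.70 within the first slide and 1.46 within the second. The call was lost without 1 array among fetuses 1, 2, 5 and 6 and newborns 1, 3, 4, 5, 6 and 7, at an adjusted p of 0.0527 to 0.0991. Without fetus 5 the change was 0.66. It was also lost with sex as a term (0.94, adjusted p = 0.0582), with a random block for animal number (0.92, adjusted p = 0.0819), under quantile normalization (0.85, adjusted p = 0.0553) and with no filter on dim probes (adjusted p = 0.0802).

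AQP1, the water channel of endothelium and red cells, did not pass. Its first probe ran from -2.13 to -0.74 in fetuses (median -0.98) and from -2.02 to -0.90 in newborns (median -1.49). No newborn was above every fetus or below every fetus, and the change was -0.30 (SE 0.227, adjusted p = 0.344). The second probe, shifted by 1 base, gave -0.24 (SE 0.217, adjusted p = 0.446). Of 9 endothelial markers 4 were on the array and 3 tested, of which PECAM1 (-0.51, adjusted p = 0.00869) and KDR (-0.46, adjusted p = 0.0233) fell. On the linear scale the 4 endothelial markers summed to 5.68 to 7.25 in fetuses and 3.94 to 6.50 in newborns, most of it PECAM1. Their part in the AQP1 values was not tested.

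AQP2, the vasopressin-regulated water channel of the kidney, was well above background on all 13 arrays with both probes. It differed by -0.02 (SE 0.117, adjusted p = 0.932) and -0.07 (SE 0.109, adjusted p = 0.686). AQP3, which also passes glycerol, ran from -5.07 to -2.64 in fetuses and from -4.69 to -3.08 in newborns with its first probe. Its change was -0.28 (SE 0.422, adjusted p = 0.664), with 0.23 within the first slide and -1.07 within the second, and its second probe gave -0.21 (SE 0.486, adjusted p = 0.782). The probes of AQP8, which also passes ammonia, read different stretches. They gave -0.25 (SE 0.112, adjusted p = 0.126) and 0.03 (SE 0.0978, adjusted p = 0.836), and neither passed.

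Of the sodium pump, ATP1B1 was measured in every sample and neither of its probes passed. ATP1B1, the beta subunit that brings the pump to the membrane, had fetal levels between 5.41 and 5.90 (median 5.65) with its second probe. Newborn levels were between 5.11 and 5.54 (median 5.40), and 5 of 7 newborns were below every fetus. The change was -0.28 for both probes (SE 0.132, adjusted p = 0.132 for the first and SE 0.108, adjusted p = 0.0717 for the second). Without newborn 6 it was -0.19 for the first (adjusted p = 0.186) and -0.28 for the second (adjusted p = 0.0766). The change passed for both probes under quantile normalization (-0.45, adjusted p = 0.0125, and -0.42, adjusted p = 0.0094). It also passed in the deposited series matrix (-0.46, adjusted p = 0.0343, and -0.41, adjusted p = 0.00512), and the second alone with normexp on the median background of each array (-0.30, adjusted p = 0.0362). A probe without a gene name, for a sequence tag, holds 54 bases of the second ATP1B1 probe on the opposite strand. It differed by 0.25 (SE 0.126, adjusted p = 0.158), with the opposite sign and no call.

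At the plasma membrane, SLC12A4 and the scaffold SLC9A3R1 were the only genes of ion transport with tested probes. SLC12A4 couples the export of potassium and chloride and serves cell volume. Its first probe ran from -0.13 to 0.35 in fetuses (median 0.08) and from 0.01 to 0.92 in newborns (median 0.45), with 4 of 7 newborns above every fetus. Its change of 0.36 (SE 0.14) did not pass at an adjusted p of 0.0758. Without newborn 6 it was 0.44 and passed (adjusted p = 0.0204). The second probe differed by 0.20 (SE 0.134, adjusted p = 0.303). SLC9A3R1 differed by 0.32 (SE 0.14, adjusted p = 0.11) and 0.34 (SE 0.137, adjusted p = 0.0887), with 5 of 7 newborns above every fetus for each probe. Without newborn 3 both its probes passed (adjusted p = 0.0483 and 0.0364). Its change was 0.06 and 0.12 within the first slide and 0.63 and 0.53 within the second.

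For 16 genes the array holds a pair of probes. In 7 pairs, for AQP1, AQP2, AQP3, AQP5, KCNK3, SCNN1A and SLC9A3R1, the probes share 59 of their 60 bases. The difference between the probes of such a pair, which holds a constant offset, varied over the 13 arrays with an SD of 0.12 for AQP2, 0.15 for AQP1, 0.18 for SLC9A3R1 and 0.42 for AQP3. The SD was 0.68 for KCNK3, 0.75 for AQP5 and 0.91 for SCNN1A. The pairs of AQP5, KCNK3 and SCNN1A were at or near background. Probes of such a pair read the same target and are not separate evidence of a change.

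**Figure D4:**
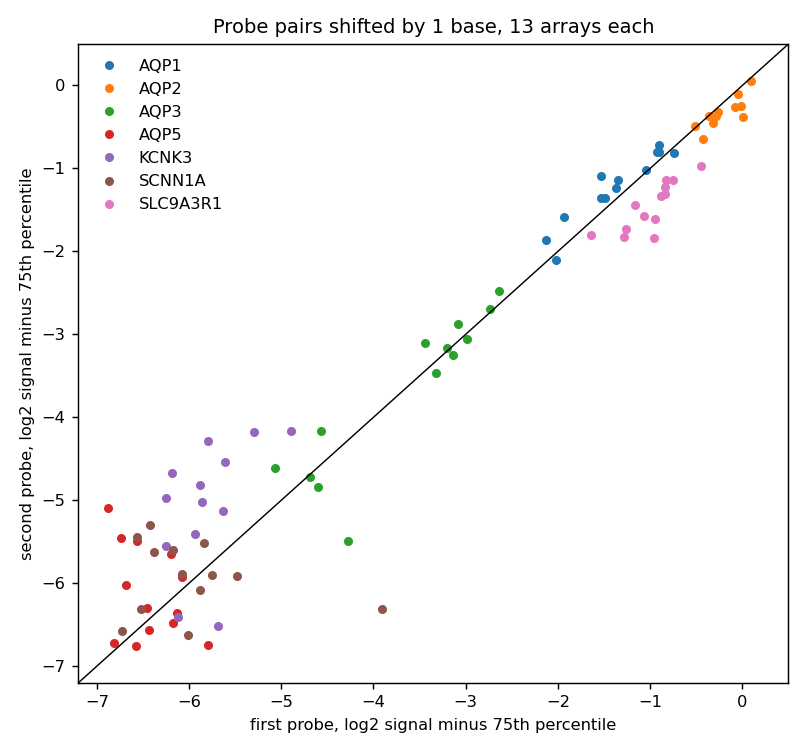
Level with the first probe (horizontal axis) against that with the second (vertical axis), both on the log2 scale relative to the 75th percentile, for 7 genes whose probes are shifted by 1 base; 13 arrays each, and the line marks equal levels. Points of AQP1, AQP2 and AQP3 mostly lie near the line, SLC9A3R1 lies below it, and AQP5, KCNK3 and SCNN1A scatter widely at the dim end.

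The third comparison was whether the change with age differed between the sexes, with 2 female fetuses as the smallest group. No probe of the array passed the interaction of age and sex in limma (0% of 10257 tested probes). At an unadjusted p under 0.05 there were 507 (4.94%), of which 1 belonged to this group. It was SLC25A6, with -0.59 in males and 0.07 in females, a difference of -0.66 (SE 0.286, unadjusted p = 0.0382, adjusted p = 0.975).

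A list of 79 genes of ion handling covered calcium release, chloride channels, gap junctions and proton pumps, among others. It also held SCNN1A, SCNN1B and SCNN1G, which the naming rule had already taken. Of the rest, outside the rule, 11 were on the array and 8 were tested. VDAC1 and CALM2 rose and none fell, where 23.1% of all tested probes were called in either direction. VDAC1, the main pore of the outer mitochondrial membrane, differed by 0.44 (SE 0.111, adjusted p = 0.0121). CALM2, a gene for the calcium sensor calmodulin, differed by 0.33 (SE 0.113, adjusted p = 0.0485). TRPM7, a channel for magnesium and calcium, did not pass (-0.43, SE 0.149, adjusted p = 0.0513), nor did the gap junction genes GJA1 (-0.21, adjusted p = 0.429) and GJA4 (-0.09, adjusted p = 0.629). Of the vacuolar proton pump, ATP6V1E1 differed by 0.26 (adjusted p = 0.078) and ATP6V1B2 by -0.24 (adjusted p = 0.234).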

How the data were processed

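RNA of frozen left ventricle was hybridised to Agilent arrays, 1 for each of 13 animals. Per the labels' protocols the dye was Cy3, although another label says Cy5. The files have green values alone and were read as 1-colour arrays. The authors' deposited scanner files hold intensity values from Agilent Feature Extraction 10.1.1.1, per the file headers. That software subtracted the background from the processed signal and detrended it within an array, with no normalization between arrays. A series matrix that the authors deposited has 7041 probes with values that look like log2 signals. Its normalization is unstated, and it served as an alternative.

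Control and outlier spots were left out, spots of a probe were averaged, and the 75th percentile of each array was subtracted on the log2 scale. Tests covered probes that 6 or more arrays measured well above background, 32 of 55 and 10257 of 15008 probes. R 4.3.3 and limma 3.58.1 (lmFit, eBayes, two-sided) compared newborn with fetal arrays, and p-values were adjusted by Benjamini and Hochberg's method over all tested probes. A call is an adjusted p under 0.05, and "rose" and "fell" refer to calls, newborn against fetal. The steps were tested on simulated data. Files were read with Python 3.11.15, pandas 2.3.3 and numpy 2.4.6, and figures drawn with matplotlib 3.10.9.

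The members, the gene lists and the rule for naming genes were chosen with earlier results of these data known. The rule names called members, members measured in every sample of 1 group and none of the other, the largest change of each family, members whose probes pass in opposite directions, and genes with textbook roles in heart. The remaining tested members are given too, except that some members enter the counts only and are not reported here by name. Of the genes outside the naming rule, the list was written for ion handling, and TRPM7, GJA1, GJA4 and the proton pump subunits are named after their values were seen. Further lists of cell type markers are described only where they bear on a member. Of the others, smooth muscle had 1 tested marker, which rose, fibroblast 3, of which 1 fell, and lymphocyte 2, which both fell. Adipocyte (2 tested) and skeletal muscle (1 tested) had no call, and no neuron marker was on the array. The skeletal muscle marker, TNNC2, varied widely between arrays. On the linear scale it ran from 0.606 to 14.3 in fetuses and from 0.729 to 39.3 in newborns. Its part in the values of AQP4 and SLC25A4 was not tested.

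Alternatives were quantile normalization, 2 normexp background corrections (offset 50), other filters on dim probes, the series matrix, a percentile over measured probes, added terms for sex, slide, replicate number and animal number, each slide alone, a trended robust eBayes, and each array left out in turn. The number of arrays limits the precision.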

Additional observations from a re-analysis of the deposited data

Results flagged for a closer look

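In 9 of 82 groups of arrays checked, each with a probe measured on at least 1 array, 1 sample lay far from the rest of its group. Chance flags about 1 in 20 such groups. Among measured probes, newborn 6 was lowest with the first ATP1B1 probe (5.10, next 5.56) and highest with the second AQP2 probe (0.059, next -0.36). Newborn 3 was highest for AQP4 (-2.46, next -3.29). Newborn 7 was lowest with the first AQP8 probe (-3.55, next -3.20), and newborn 4 was highest with the second (-0.85, next -1.19). Fetus 2 was highest for SLC25A11 (2.06, next 1.84). Among dim probes, fetus 6 was highest with the first SCNN1A probe (-3.91, next -5.88), newborn 4 was lowest for SCNN1B (-6.24, next -4.83) and fetus 1 was highest with the first SLC6A4 probe (-2.28, next -5.70).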

How the results depend on the processing

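SLC39A3 and SLC25A26 kept their sign in all 27 alternatives and were called in 24 each, among them all 13 that leave out an array (adjusted p = 0.00142 to 0.0125 and 0.00352 to 0.014). Both calls were lost with normexp on the background of each spot and within each slide. AQP4 was called in 8 of 25 alternatives, SLC17A5 in 10 (first probe) and 15 (second probe) of 27. The number of called probes of the group, 5 in the analysis reported, was 0 with normexp on the background of each spot, within slide 1 and within slide 2, and 2 with no filter on dim probes (of 55), with sex as a term and with animal number as a random block, where 1834 of 15008, 1944 and 1717 of 10257 probes were called over the whole array. It ran from 2 to 6 on leaving out an array. By the brightest probe of a gene, 4 genes were called, 0 with normexp on the background of each spot and within either slide, 2 with no filter, with sex as a term and with animal number as a random block, and 2 to 5 on leaving out an array. The probes called over the whole array, 2366, became 48 with normexp on the background of each spot, 356 within slide 1 and 23 within slide 2, where fewer arrays entered, and 1726 to 3116 on leaving out an array. The interaction of age and sex stayed at 0 members throughout the arrays left out (0 to 0). For the other losses the cause was not tested. The fit with replicate number as a block called 1326 probes and 4 of the group, and lost the first SLC17A5 probe (adjusted p = 0.0765); same-numbered fetal and newborn arrays did not deviate together (correlation -0.07 to 0.05), and 1 of 6 fetal arrays correlated best with its own number. Over the alternatives, the 5 called probes kept their call in 81 values and lost it in 52, and the other tested probes passed in 12 of 716. No probe was called with the opposite sign. Signal over background limits the 23 untested probes.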

Other observations

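The array also holds 34 probes for 20 channel, pump and transporter names that do not begin with the letters of the rule, most of them older names, chosen after the descriptions in the files were seen. Of these, 11 probes were tested, where 23.1% of all tested probes of the array were called in either direction. Besides VDAC1 only a prostaglandin transporter passed. It fell by 0.41 on the log2 scale (SE 0.114, limma adjusted p = 0.0187), and 5 of 7 newborns were below every fetus. SMCT1, a sodium-coupled carrier of lactate and other monocarboxylates, was measured on all 13 arrays. It differed by 0.30 (SE 0.135, adjusted p = 0.123) and 0.31 (SE 0.115, adjusted p = 0.0672), and 6 of 7 newborns were above every fetus with each probe. With the first probe 1 newborn was below every fetus. ATP6V0C, the membrane ring of the vacuolar proton pump, differed by -0.07 (SE 0.0796, adjusted p = 0.557). The cationic amino acid carrier CAT-1 differed by 0.28 with its tested probe (SE 0.243, adjusted p = 0.42). Glutamate carriers (EAAT1, EAAT2, EAAT3 and GLT-1), the neutral amino acid carriers LAT1 and LAT2, and the copper pump ATP7B were well above background on 1 array at most.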
